A study of Homo sapiens with 8 samples.

Results

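Libraries from cells labelled HepG2, a human hepatocarcinoma line, were compared after UV light and after hepatocyte growth factor (HGF), for messenger RNA level and for N6-methyladenosine (m6A), the most common internal methyl mark of messenger RNA. The comparison took 4 of the 8 libraries of the series, chosen by their treatment labels. The UV group had received 0.04 J/cm2 and then recovered for 4 h, and the HGF group had been kept overnight with 10 ng/ml of HGF/SF. Each group held 1 immunoprecipitation (IP) library, made with an anti-m6A antibody from polyA RNA cut to about 100 nt, and 1 input library. All cells shared the same growth medium with serum, and no untreated library was analysed here.

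With 1 library of each kind per treatment, no test across replicates could be run, and no p-value is given. Treatment, time before harvest and library cannot be told apart, and "higher after UV" means only higher than after HGF. The measurements covered 25918 gene models, of which 19965 were protein coding. For each treatment a model had an expression percentile, which is its rank among all models from 0 to 100, and a list of m6A peaks. Each peak had a position in the transcript, an exon, a transcript segment and a score. A percentile holds no amount, so no fold is given, and the depth of the libraries is unknown. Models tied at the lowest rank form a floor, which lay at percentile 45.5 after UV (11798 models) and at 20.4 after HGF (5292 models). For differences, values under 45.5 were raised to 45.5. A model was compared when it reached percentile 60 on at least 1 side, and 11601 models did.

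As background, m6A is written on new transcripts by a nuclear complex built on METTL3, mostly at adenosines of GGAC-like sequences in long internal exons, near stop codons and in 3' UTRs. It is removed by FTO and ALKBH5 and read by YTH-domain and other RNA-binding proteins. The antibody also binds N6,2'-O-dimethyladenosine (m6Am), a modified nucleotide next to the cap that is made by PCIF1, so a peak at a transcript start can be of either kind and the data do not separate them. UV light damages DNA and engages nucleotide excision repair and the ATR checkpoint kinase. HGF binds the MET receptor, which signals through RAS and ERK.

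The labelled cell type was checked first. Most defining hepatocyte genes ranked low on both sides. Of 30 listed, 7 were above the floor after UV and 22 after HGF. VTN reached 59.9 after HGF and APOE 55.4 after UV, both under the filter. ALB, AFP, FGB, APOB and HNF4A were at the UV floor of 45.5. After HGF, ALB was listed at 24.9, APOB at 26.6, HNF4A at 33.3, and AFP and FGB were at the HGF floor of 20.4. Of 30 hepatocyte genes, 4 passed the filter. They were CPS1 (99.6 on both sides), FOXA1 (71.8 after UV, 81.3 after HGF), CEBPA (68.4 and 63.7) and TTR (76.1 and 43.0). Their median difference was 2.34 points, and 1 of them, TTR, was 10 points or more apart. Of 10 cholangiocyte markers, 6 passed, with KRT7 at 99.8 after UV and 99.2 after HGF, while EPCAM and CFTR were at the floor on both sides. Their median difference was -10.8 points, and 4 of them (KRT19, SOX9, ANXA4 and MUC1) stood 10 points or more higher after HGF. After correction for GC content, described below, the median was -3.60 and SOX9 and ANXA4 were past 10 points. Their part in the results below was not tested. Of 12 fibroblast and endothelial markers, 5 passed, among them LUM at 92.9 and 90.2 and DCN at 79.8 and 68.6 (median 2.75, with 1 gene 10 points or more higher on each side). Of 12 blood cell markers, 2 passed, CD68 (65.9 and 88.3) and HBB (60.9 and 20.4), while PTPRC and LYZ stood at the UV floor (median of the pair -3.50). The libraries are therefore called by their labels, and the markers do not support naming them as hepatocyte-like. MET, the HGF receptor, stood at 97.2 after UV and 95.7 after HGF.

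More m6A peaks were listed after UV than after HGF. The UV list held 13307 peaks in 7172 models, and the HGF list held 9111 peaks in 5508 models. Both lists had peaks in 4993 models, 2179 models had UV peaks alone and 515 had HGF peaks alone. The order of the peak counts was opposite to that of the expression columns, in which 14120 models stood above the floor after UV and 20626 after HGF. Peaks were listed less often in models of low expression on both sides. A peak was listed after UV in 22.2% (exact 95% interval 20.6 to 23.8%) of models between percentiles 50 and 60 and in 67.9% (66.1 to 69.7%) of models between 90 and 100. After HGF the shares were 18.1% (16.7 to 19.7%) and 49.1% (47.1 to 51.0%), with 52.7% (50.8 to 54.6%) between 80 and 90. Intervals here cover counting error only.

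Most HGF sites had a UV counterpart. An HGF peak had a UV peak of the same model within 100 nt in 70.8% of cases (69.9 to 71.7%), and a UV peak had an HGF peak in 48.4% (47.5 to 49.2%). When the positions of the other list were displaced by 400 nt, the shares were 11.4 and 12.3% for HGF peaks and 7.82 and 8.38% for UV peaks. In the 5309 models at percentile 75 or more on both sides, the shares were 68.3% (66.96 to 69.57%) of HGF peaks and 47.5% (46.3 to 48.7%) of UV peaks. Pairing each peak with its nearest counterpart gave 6412 shared sites, whose positions differed by a median of 14 nt, and 97.7% of these had the same segment label on both sides. Peaks without a counterpart are called UV-only (6871) and HGF-only (2660). They had lower scores than shared peaks, with medians of 3.55 against 4.72 on the UV side and 2.83 against 3.56 on the HGF side. The lowest score in the table was 2.00, and a site without a listed peak is not shown to be unmethylated.

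The sequences under the peaks were read where the deposited model could be matched to a transcript. A model was matched to a GENCODE 29 transcript of the same symbol, chromosome, strand and span whose exon numbers and lengths were the same at every peak. This held for 670 of 7687 models with a peak (8.72%), so the shares describe those models and no others. In the 101-nt window centred on a peak, the letters GGACT, searched on the transcript strand, were present at 28.4% (25.9 to 31.1%) of 1210 UV peaks and 26.8% (23.8 to 30.0%) of 835 HGF peaks, against 9.53% of all 26762 windows of the same length along these transcripts. At windows displaced by 200, 300 or 400 nt to either side the shares ran from 7.19 to 10.8% for UV and from 6.59 to 10.9% for HGF. The shorter GGAC, which every GGACT contains, was present at 64.9% of UV and 59.5% of HGF peaks and in 32.7% of all windows. Leaving out transcript starts, GGACT was present at 30.6% of shared UV peaks (26.9 to 34.5%, n = 591), 28.5% of UV-only peaks (24.8 to 32.5%, n = 543) and 21.8% of HGF-only peaks (16.5 to 27.9%, n = 220). The UV-only and HGF-only intervals overlap. At UV peaks on transcript starts the share was 10.5% (4.66 to 19.7%, n = 76), an interval that includes the share over all windows, while GGAC was present at 47.4% of them (35.8 to 59.2%).

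High-scoring shared sites of matched models at percentile 75 or more on both sides, with a GGACT within 50 nt, are printed to show what these sites look like. LITAF, a regulator of lysosomal sorting, carried its site in the 3' UTR of exon 4 at transcript position 922 (score 8.14 after UV, 4.30 after HGF). FNDC3A and SETD5, a SET-domain protein, carried theirs around the stop codon, at positions 3740 and 4797. Their UV scores were 7.78 and 7.75 and their HGF scores 4.33 and 5.58. The sequences are from GENCODE 29 transcripts, 5′ to 3′, with the GGACT nearest the peak in capitals.
LITAF, shared: cgtgcataGGACTtgcaaaga
FNDC3A, shared: ctctcagaGGACTgaaccacc
SETD5, shared: ctcagacgGGACTttcctagg
The methylatable A lay 1, 7 and 42 nt from the listed peak position in that order.

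For contrast, sites listed on 1 side alone are shown by the same rule, in models at percentile 75 or more on both sides. The UV-only sites were in the 5' UTR of CNOT6, a deadenylase of the CCR4-NOT complex (position 260, score 6.12), in the coding sequence of PALLD, an actin-binding protein (position 2093, score 5.72), in the 5' UTR of RNF150 (position 373, score 5.63) and around the stop codon of IMMT, which shapes the inner mitochondrial membrane (position 2573, score 5.47). The HGF-only sites were in the coding sequences of SFRS14 (position 1514, score 4.23) and CEP152, a centriole protein (position 3116, score 3.65), and around the stop codon of TRIAP1 (position 296, score 3.65).
CNOT6, UV-only: agcgggcgGGACTggtatggt
PALLD, UV-only: gagtaaatGGACTgattaacg
RNF150, UV-only: cggcagcaGGACTcctccgca
IMMT, UV-only: gtggcacaGGACTggctgaag
SFRS14, HGF-only: aaccccctGGACTtggctctt
TRIAP1, HGF-only: gaaattgaGGACTctggattt
CEP152, HGF-only: tagagaatGGACTatgcagga
The capitals again mark GGACT. The 5' UTR site of CNOT6 was listed after UV alone at similar expression (82.7 after UV, 84.0 after HGF).

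The 2 lists differed most at transcript starts. Of peaks with a segment label, 9.49% (8.99 to 10.0%) of 12945 UV peaks and 3.85% (3.46 to 4.27%) of 8856 HGF peaks lay at the start. In models at percentile 75 or more on both sides the shares were 14.1% (13.3 to 15.0%) and 5.51% (4.88 to 6.18%). In the subset of these whose percentiles lay within 5 points of each other they were 15.3% (14.2 to 16.3%) and 5.70% (4.94 to 6.55%). The start was the segment where UV peaks most often lacked a counterpart: 20.3% of UV start peaks had an HGF peak, against 32.4% in 5' UTRs, 51.7% in the coding sequence, 55.9% around stop codons and 47.9% in 3' UTRs. HGF start peaks had a UV peak in 71.0% of cases, near the 70.8% of all HGF peaks. Start peaks lay at a median transcript position of 103 after UV and 116 after HGF.

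Coding sequence differed in the other direction. In models at percentile 75 or more on both sides, 51.0% (48.5 to 53.6%) of HGF-only peaks were in coding sequence, against 34.3% (32.7 to 35.8%) of UV-only peaks and 38.7% (37.1 to 40.4%) of shared UV peaks. Shared sites were more often around the stop codon, at 31.3% (29.7 to 32.9%), than UV-only sites at 21.5% (20.2 to 22.9%) and HGF-only sites at 23.0% (20.9 to 25.1%), whose intervals overlap. In 5' UTRs lay 4.11% (3.49 to 4.80%) of UV-only and 1.69% (1.10 to 2.46%) of HGF-only peaks, in the same direction as at the start. The exon that held a coding-sequence peak had, over all models, a median length of 1473 nt at shared UV peaks, 1125 nt at UV-only peaks and 1397 nt at HGF-only peaks.

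**Figure D1:**
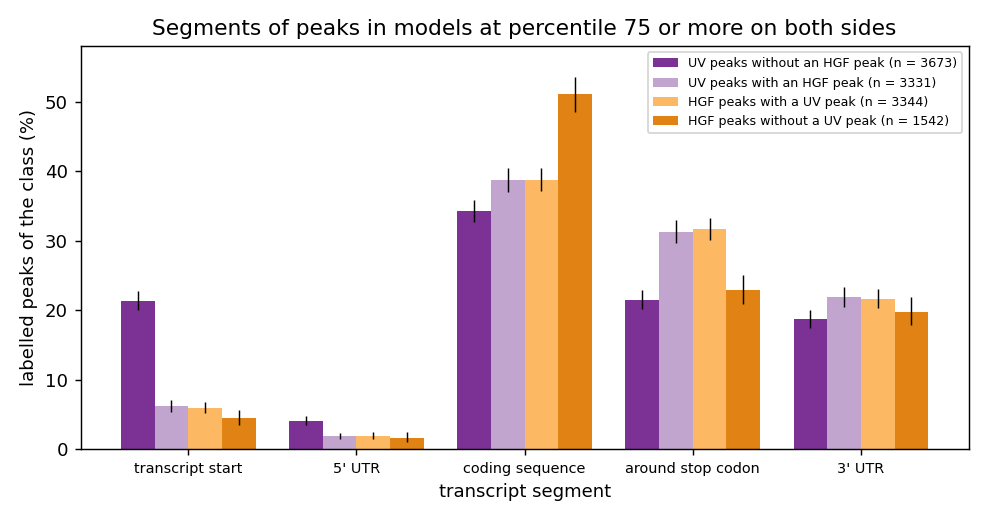
Percent of labelled peaks in each transcript segment (y axis) for UV-only, shared and HGF-only peaks in models at percentile 75 or more on both sides. Bars are shares and error lines are exact 95% intervals for counting error. UV-only peaks stand apart at the transcript start (21.4%), and HGF-only peaks in the coding sequence (51.0%).

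A start peak was listed on both sides in 238 models, after UV alone in 990 and after HGF alone in 103. These groups of models had similar medians in level and base composition. Their median percentiles after UV were 91.4, 91.8 and 88.2, those after HGF were 91.3, 91.1 and 89.1, and their median GC contents were 46.8, 47.3 and 48.0%. Of the 990 models with a start peak after UV alone, 462 had another peak after HGF.

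Named by score, HIF1A, the oxygen-regulated transcription factor subunit, led the UV start peaks in models with no HGF peak. Its start peak lay at transcript position 97 with a score of 8.08, and its percentiles were 98.9 after UV and 98.1 after HGF. EIF4G2, a translation initiation factor, had a start peak at position 179 (score 7.56) and percentiles of 99.7 and 99.2. FAM62B (now ESYT2), a membrane-tethering protein, scored 7.07 at position 178. ARIH1, a ubiquitin ligase, scored 6.99 at position 73 and had a further coding-sequence peak at position 441 (score 7.09). YME1L1, a mitochondrial inner-membrane protease, scored 6.97 at position 116, and GHITM scored 6.68 at position 188. All 6 were above percentile 87 on both sides, and their percentiles were at most 2.26 points apart.

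The opposite set had lower scores, as did the HGF list as a whole (median 3.33, against 4.07 for the UV list). MRPS14, a mitochondrial ribosomal protein, had an HGF start peak at position 89 with a score of 3.76 and no UV peak, at percentiles of 89.1 after UV and 80.3 after HGF. TOB1, an antiproliferative adaptor of the CCR4-NOT complex, scored 3.66 at position 182. PPP2R1B, a scaffold of protein phosphatase PP2A, scored 3.56, MAGOH, a core exon junction complex protein, 3.42, RALA, a small GTPase, 3.40, and RBBP4, a histone chaperone, 3.31. The highest of these lay below the median UV start score of 3.79, and the median HGF start score was 2.71.

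Several genes at percentile 75 or more on both sides held many sites listed on a single side. FAT1, a giant cadherin, had 18 UV and 12 HGF peaks at percentiles of 85.3 and 79.1. Its sites at positions 12875 after UV (score 5.86) and 12876 after HGF (5.59) and at 8896 (4.93) and 8882 (5.43) were shared, and most of its UV-only sites lay in exons 2 and 10, which are 3283 and 4068 nt long. DSP, the desmosomal plaque protein desmoplakin, had 9 UV and 2 HGF peaks at nearly equal percentiles of 99.1 and 98.9. All 9 UV peaks lay in exons 23 and 24, and the one shared site was at position 7016 (score 5.63 after UV, 3.19 after HGF). AKAP13 (11 UV, 5 HGF), ZFHX3 (16 and 11), PLEC1 (13 and 9) and FLNA, an actin cross-linker (8 and 3), followed. On the HGF side DIDO1 had 9 HGF and 6 UV peaks, of which 6 HGF peaks had no counterpart, all 6 within exon 16 (4677 nt) and with scores of 2.07 to 3.71. ASH1L, a histone methyltransferase (7 HGF, 4 UV), CSPG4 (7 and 6), HIVEP1 (7 and 4), SEC16A (6 and 6) and AHDC1 (8 and 4) were next.

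Scores at shared sites were ordered only loosely alike. Over the 6412 shared sites, which come from the same models, Spearman's rho between the UV and HGF scores was 0.473, and the UV score was the higher at 78.0% (77.0 to 79.0%) of them. Because the formula of the score is not given, each side's scores were ranked among these sites from 0 to 100. The UV rank was 25 points or more higher at 1253 sites (19.5%) and the HGF rank at 1231 (19.2%). Start sites again leaned to UV: at 250 shared start sites the median rank difference was 13.6 points, 36.4% (30.4 to 42.7%) ranked higher after UV and 30 sites (8.24 to 16.7%) ranked higher after HGF. In coding sequence the median was -2.32 points, with 18.4% and 19.2%. Around stop codons it was -0.34 points, with 20.03% and 18.6%.

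XPO1, the nuclear export receptor, had the largest score-rank difference towards UV. It scored 8.12 after UV and 2.01 after HGF at a 5' UTR site (positions 329 and 341), while its percentiles were 98.3 and 97.6. SEMA3C, a guidance ligand, scored 7.65 and 2.07 around its stop codon. CDC42EP3 (7.02 and 2.01), CTSB, a lysosomal protease (7.05 and 2.02), and ARMC1 (8.51 and 2.22) also had their sites at or near the stop codon. The HGF scores of these sites lay close to 2.00, the lowest score listed, and the naming rule favours such sites. ACTR2, a subunit of the ARP2/3 complex, scored 7.51 and 2.16 at its start site, but 7.81 and 4.19 at its stop-codon site.

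Towards HGF, MYC, the growth-promoting transcription factor, led. Its stop-codon site scored 2.10 after UV (position 1932) and 5.70 after HGF (position 1931), at percentiles of 97.3 and 99.3. This UV score was likewise close to 2.00, the lowest listed. THAP11 scored 2.38 and 5.61 around its stop codon, WDR20 2.66 and 5.89 and SPSB2 2.15 and 5.16 in coding sequence, and TUBB6, a beta-tubulin, 2.42 and 5.36 in its 3' UTR. In CNNM2, the sites at positions 3825 (2.78 after UV, 6.04 after HGF) and 1628 (3.05 and 5.85) both scored higher after HGF, and its stop-codon site did the opposite (3.12 and 2.03). Between the rank difference and the percentile difference, rho was -0.0428 over the 6412 sites. In models 10 points or more higher in expression after UV, 14.4% of sites (11.8 to 17.4%) ranked higher after UV and 24.3% (21.1 to 27.8%) after HGF. In models higher after HGF the shares were 21.9% (18.6 to 25.5%) and 18.2% (15.2 to 21.6%).

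**Figure D2:**
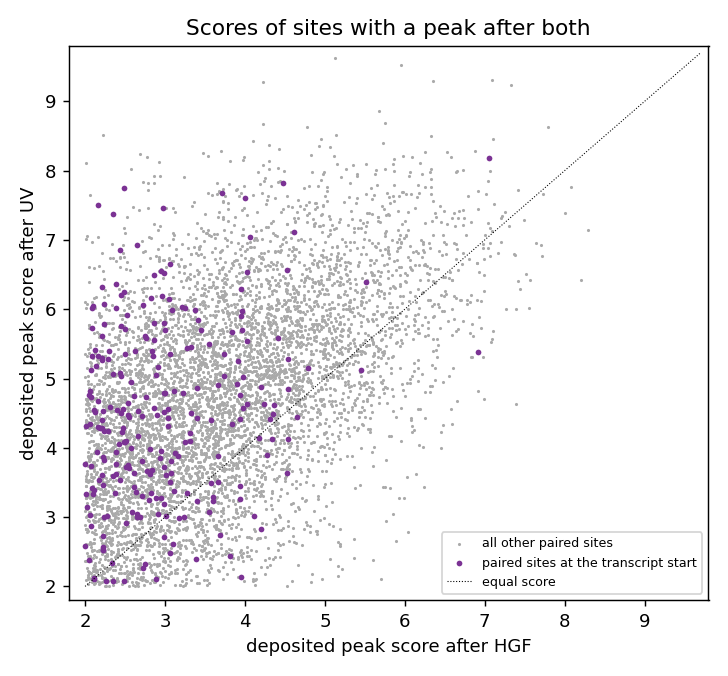
Deposited peak score after UV (y axis) against that after HGF (x axis) for the 6412 shared sites, each point 1 site. Sites at the transcript start are in purple, and the dotted line marks equal scores. Most points lie above the line (78.0%), and start sites gather at low HGF scores.

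Expression percentiles after UV and HGF were related over the 11601 models past the filter (rho = 0.755). The median difference, UV minus HGF, was 0.58 points, with quartiles of -5.98 and 6.48. A model stood 10 points or more higher after UV in 1760 cases (15.2%) and after HGF in 1919 cases (16.5%). Of the 11601 models, 11094 were above both floors. The others stood at a floor on 1 side and passed the filter only through the other side. Their calls are fixed by the filter and the floor, and the counts include them. Models that differed had a listed peak less often, on both sides. A UV peak was listed in 42.7% of those higher after UV, 44.4% of those higher after HGF and 64.3% of those within 10 points. An HGF peak was listed in 34.3, 29.5 and 51.1% of them. These groups were not matched for level, and peaks were listed less often at low percentiles. Of the models that differed, 227 of the 1760 and 299 of the 1919 stood at percentile 75 or more on both sides.

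**Figure D3:**
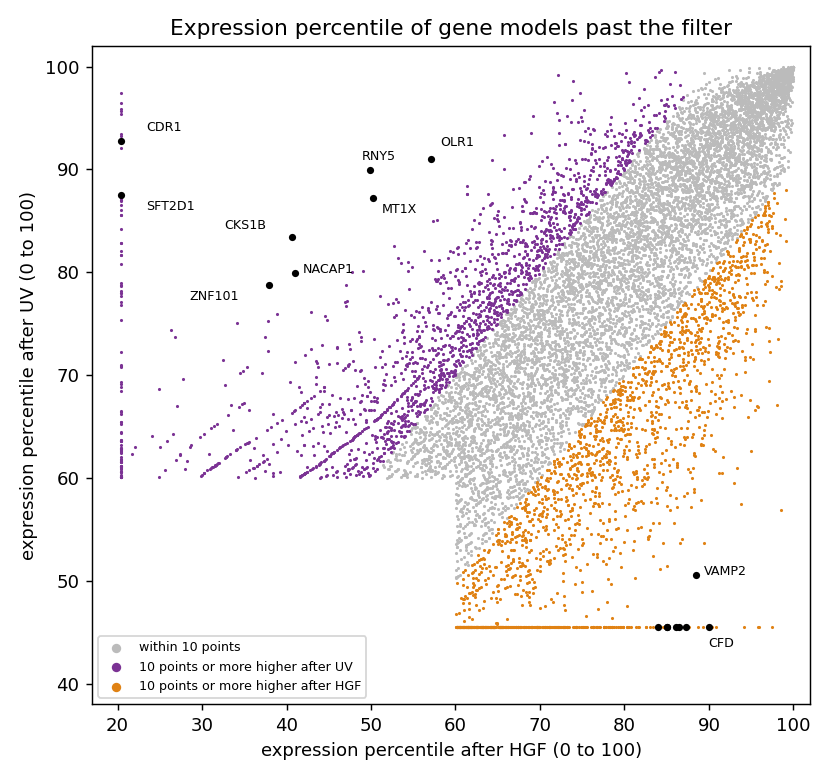
Expression percentile after UV (y axis) against that after HGF (x axis) for models past the filter, each point 1 model, with the widest differences by the naming rule in black and most of them labelled. The rows of points at 45.5 after UV and at 20.4 after HGF are the floors. Models 10 points or more apart number 1760 after UV (purple) and 1919 after HGF (orange).

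Base composition went with the difference. GC content was that of the longest GENCODE 29 transcript under the same symbol or a synonym, not of the deposited model. It was known for 10445 of these models (90.04%), and its rho with the difference, UV minus HGF, was -0.571. With the models in 5 equal classes by GC content, in the GC-poorest class (30.2 to 40.8%) the median difference was 6.52 points, and 29.5% stood higher after UV against 2.39% after HGF. In the GC-richest class (58.2 to 73.9%) the median was -7.83 points, and 3.73% stood higher after UV against 41.1% after HGF. For the percentile itself, rho with GC was -0.189 after UV and 0.190 after HGF. Genomic span had a median of 24.7 kb in models higher after UV, 10.9 kb in models higher after HGF and 27.0 kb in models within 10 points. Over all models past the filter, rho of the difference with span was 0.189 as deposited and -0.016 after the GC trend was subtracted.

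**Figure D4:**
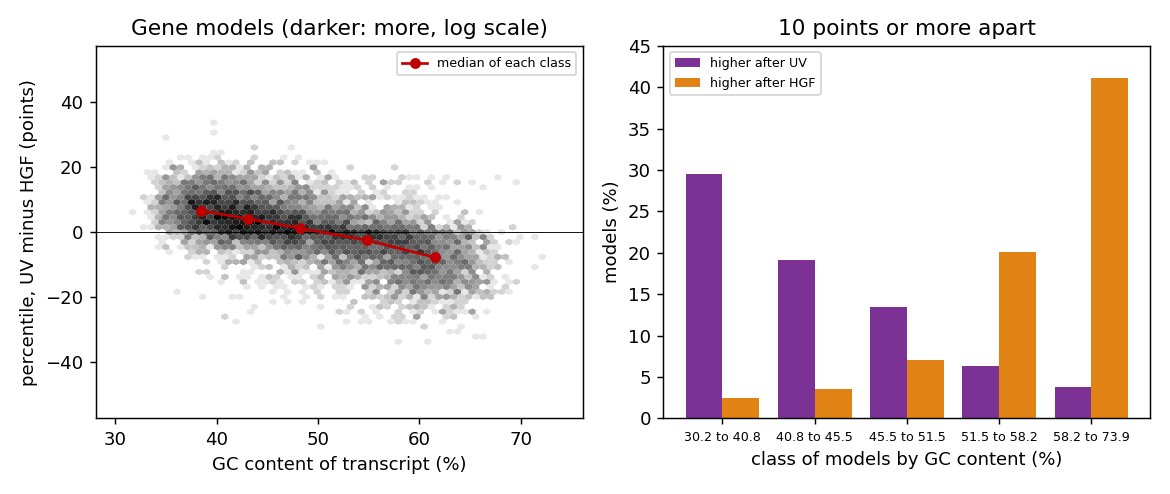
Left, percentile difference UV minus HGF (y axis) against GC content of the longest GENCODE 29 transcript of the gene (x axis). The median of each of 5 equal GC classes is in red. Right, percent of models in each class that stood 10 points or more higher after UV (purple) or HGF (orange). The shares cross over, from 29.5% and 2.39% in the GC-poorest class to 3.73% and 41.1% in the GC-richest.

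A GC-corrected difference was also computed, as the difference minus the median of models in the same of 40 GC bins. By it, 992 models (9.50%) stood 10 points or more higher after UV and 1026 (9.82%) after HGF. Of the 1508 UV models with a known GC content, 796 were called both ways, and of the 1550 HGF models, 852. Whether the cells or the making of the libraries set the GC relation was not tested.

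Among single genes, the widest differences towards UV were those of CDR1 and SFT2D1, which were at the floor after HGF. CDR1, a locus that also gives an antisense circular RNA from which unstranded reads cannot be told apart, stood at 92.7 after UV and 20.4 after HGF. It is deposited at chrX:139693091-139694389 on the minus strand, and the genome build is not given in the sources used here. SFT2D1, a vesicle-transport protein, stood at 87.5 and 20.4. A 0.804 kb model under the symbol RNY5, a small Y RNA, stood at 89.9 and 49.9. CKS1B, a cofactor of cyclin-dependent kinases, stood at 83.4 and 40.6. MT1X, a metallothionein that binds metals, stood at 87.2 and 50.3 with a UV start peak and no HGF peak, and its difference was 38.2 points after GC correction. OLR1, a scavenger receptor for oxidised lipoprotein, stood at 91.1 and 57.2 and had 2 UV peaks and no HGF peak. NACAP1 (79.9 and 41.0), ZNF101 (78.8 and 37.97), TMEM68 (80.1 and 47.8) and ITGAE, an integrin subunit (78.8 and 47.0), completed the set. MT1X and NACAP1 have near-identical copies in the genome, so their reads may have been split between copies.

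Towards HGF the widest differences were in models at the UV floor of 45.5. CFD, complement factor D, stood at 89.96 after HGF, and BCL3, an NF-kB regulator, at 87.3. A 0.703 kb model under the symbol SREBP-1 stood at 86.4. NDUFS7, a complex I subunit, stood at 86.2, MXD3, a MAX partner, at 85.0, TIMM17B, a mitochondrial import subunit, at 85.0, and OAF at 84.0. VAMP2, a vesicle SNARE, was above both floors (50.5 after UV, 88.4 after HGF), as were SCRN2 (53.7 and 89.4), SLC48A1, a heme transporter (51.5 and 85.0), SERINC2 (51.2 and 84.3), TBC1D22B (47.6 and 80.3), ATF6B, a membrane-bound stress transcription factor (62.6 and 95.03), FPGS, which retains folate in cells (61.0 and 93.3), and LTBP4, which binds latent TGF-beta (46.4 and 78.5). GC contents in this set ran from 50.9% in TBC1D22B to 67.4% in BCL3. After GC correction each named model with a known GC content was still more than 20 points apart in its direction.

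Among genes of the UV response, DNA damage response genes were called in both directions. Of 29 such genes, 28 passed the filter, 2 stood higher after UV, 6 after HGF and 20 lay within 10 points. These shares, as all below, are read against 15.1% of models higher after UV and 16.4% after HGF with 1 model per symbol. Both background shares include models at a floor on 1 side. Counts after GC correction are read against 9.50% and 9.82% of the 10445 models with a known GC content. Higher after HGF were BAX, a pro-death pore protein (68.4 after UV, 90.2 after HGF), GDF15, a secreted stress cytokine (45.5 and 66.0), FDXR (51.6 and 71.1), SESN2 (55.5 and 71.9), DDB2, which finds UV lesions (63.8 and 79.4), and CDKN1A, the p21 cell cycle inhibitor (68.0 and 80.7). Higher after UV were GADD45A (82.5 and 69.3) and PMAIP1, the BH3-only protein NOXA (75.8 and 62.9). The list's median difference was 0.85 points, and -2.90 after GC correction, where 2 and 5 genes stood apart. MDM2, a ubiquitin ligase, stood at 93.4 and 91.8, with no UV peak and 2 HGF peaks.

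Of 33 nucleotide excision repair genes, 32 were found and passed, 2 stood higher on each side and 28 lay within 10 points (median -0.24), and 1 and 2 stood apart after GC correction. ERCC8, the Cockayne syndrome A protein, stood at 65.0 after UV and 49.6 after HGF, and ERCC4, an incision nuclease, at 69.0 and 58.2. DDB2 is given above, and ERCC1, the partner of ERCC4, stood at 70.2 and 82.4. XPA (83.9 and 78.7) and XPC (79.4 and 84.4) were within 10 points. Of 22 damage checkpoint genes, 4 stood higher after UV and 0 after HGF, with a median of 1.79 points. They were BRCA2, a homologous recombination protein (73.1 and 54.0), HUS1, part of the checkpoint clamp (85.0 and 74.4), RAD17, its loader (76.4 and 66.1), and ATR (85.6 and 75.6). After GC correction 1 of them, BRCA2, was past 10 points.

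Stress and immediate early transcription factors were split. Of 17 AP-1 and stress factors, 16 passed, 4 stood higher after UV and 5 after HGF (median -4.09). Higher after UV were DDIT3, the CHOP factor of the integrated stress response (80.3 and 60.2), ATF3 (65.7 and 47.3), GADD45B (83.3 and 70.3) and JUN (86.9 and 75.3). Higher after HGF were FOS (66.7 and 88.5), MAFF (49.9 and 69.3), FOSB (47.2 and 61.6), MAFK (74.0 and 84.3) and MAFG (64.7 and 74.8). FOS had 3 UV peaks and no HGF peak although its percentile was lower after UV. The 4 genes higher after UV kept that call after GC correction, with 15.2 points for JUN and 19.2 for DDIT3. MAFK and MAFG lost theirs, at -1.32 and -6.51 points, and ATF2 (90.1 and 93.5) gained one towards HGF, at -10.4 points. By the corrected difference 4 genes stood higher on each side, with a median of -1.13. Of 22 other immediate early genes, 18 passed and 2 stood higher on each side (median -0.13), and 4 and 2 after GC correction, where the median was 1.64. CTGF, a matricellular protein (91.04 and 73.5), and EGR3 (62.2 and 43.2) stood higher after UV. NR4A1 (60.9 and 87.5) and EGR1 (76.8 and 95.6) stood higher after HGF, and EGR1 had 4 UV peaks and 1 HGF peak.

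The HGF pathway was described from ligand to targets. HGF itself was at the floor of 45.5 after UV and at 22.4 after HGF. Of 12 genes of the ligand and receptor list, 6 passed, 0 stood higher after UV and 2 after HGF (median -0.52), and 0 and 1 after GC correction. The 2 were MST1R, the MET-related RON receptor (55.3 and 82.0), and PLXNB1, a semaphorin receptor that binds MET (56.5 and 70.2). MET carried 4 peaks on each side. Of 25 MET adaptors and ERK cascade genes, 24 passed, and MAPK3, the ERK1 kinase (63.6 and 85.5), was the single one 10 points or more apart (median -0.94). Of 26 ERK targets and feedback genes, 15 passed, 4 stood higher after UV and 4 after HGF (median 2.77), and 3 and 2 after GC correction. Higher after UV were ERRFI1, an EGF receptor inhibitor (87.6 and 63.8), HBEGF, an EGF-family ligand (61.5 and 44.1), CCND1, cyclin D1 (90.6 and 80.1), and EREG, another EGF-family ligand (69.99 and 59.95). Higher after HGF were ETV4 (45.5 and 79.0), DUSP4, an ERK phosphatase (45.5 and 60.4), PLAUR, the urokinase receptor (65.5 and 78.4), and VEGFA (83.2 and 94.8).

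Few genes of the m6A machinery were 10 points apart, and most ranked high on both sides. In models at percentile 75 or more on both sides, 4.28% stood higher after UV and 5.63% after HGF. Of 12 writers and erasers, 11 were found and passed, 1 stood higher after UV and 0 after HGF (median 1.05). METTL3, the catalytic subunit, stood at 89.9 after UV and 86.9 after HGF. WTAP, its adaptor, stood at 92.9 and 82.6, which was 6.86 points after GC correction. KIAA1429 (now VIRMA) stood at 90.3 and 83.2, RBM15 at 90.7 and 94.4, RBM15B at 87.4 and 90.4, ZC3H13 at 89.3 and 88.2, and CBLL1 (HAKAI) at 77.0 and 81.5. METT10D (now METTL16) stood at 79.9 and 76.8, PCIF1, the m6Am writer, at 76.7 and 82.1, FTO at 84.9 and 82.7, and ALKBH5 at 90.5 and 94.5. ALKBH5 carried 4 UV peaks and no HGF peak, and RBM15 carried 2 and 5. Of 14 readers, 14 passed and 0 were 10 points apart (median 0.06, and -4.41 after GC correction). All 14 stood at 69.8 or higher on both sides, from IGF2BP2 (69.8 and 74.1) to HNRNPA2B1 (99.7 and 99.8).

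Hypoxia and cholesterol synthesis genes each held more members called higher after HGF than after UV, a difference that was not tested. Of 18 hypoxia genes, 16 passed, 0 stood higher after UV and 4 after HGF (median -4.76). They were CA9, a carbonic anhydrase (67.8 and 93.0), P4HA2, a collagen prolyl hydroxylase (68.4 and 83.3), VEGFA, and BNIP3, a mitophagy receptor (81.8 and 92.2). After GC correction 1 stood higher after UV and 5 after HGF. Of 20 cholesterol synthesis genes, 2 stood higher after UV and 6 after HGF (median -2.67), and 0 and 5 after GC correction, where the median was -0.34. SREBF2, the pathway's master transcription factor (76.9 and 96.4), LSS (67.2 and 84.8), INSIG1, a feedback inhibitor (76.0 and 89.2), DHCR7 (76.9 and 89.8) and PMVK (83.0 and 95.5) were among those higher after HGF. SQLE (90.4 and 79.2) and HMGCS1 (84.8 and 74.7) stood higher after UV. A UV peak was listed in 15 of the 20 genes and an HGF peak in 7, against 58.2% and 45.4% of all models past the filter with 1 per symbol.

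The remaining lists were closer to level. Of 20 unfolded protein response genes, 2 stood higher after UV, DDIT3 and DNAJB9 (69.7 and 55.5), and 2 after HGF, CHAC1 (59.3 and 80.8) and TRIB3 (71.7 and 83.5), with a median of 0.64, and 1 on each side after GC correction. Of 19 heat shock chaperones, 2 stood higher after UV, DNAJB4 (86.4 and 67.8) and CHORDC1 (91.9 and 80.8), and 0 after HGF (median 0.91), and 1 on each side after GC correction. Of 25 cell cycle genes, CCNE2, cyclin E2 (80.3 and 64.9), stood higher after UV and CDT1, a replication licensing factor (68.4 and 92.6), after HGF (median 0.78), and 0 and 1 after GC correction. Of 15 housekeeping genes, 0 were 10 points apart (median 0.39), and ACTB stood at 99.9 on both sides. Heat shock, cell cycle and housekeeping genes had median percentiles of 94.3 or more on both sides, which leaves little room above them. In models at percentile 75 or more on both sides, 4.28% stood higher after UV and 5.63% after HGF.

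**Figure D5:**
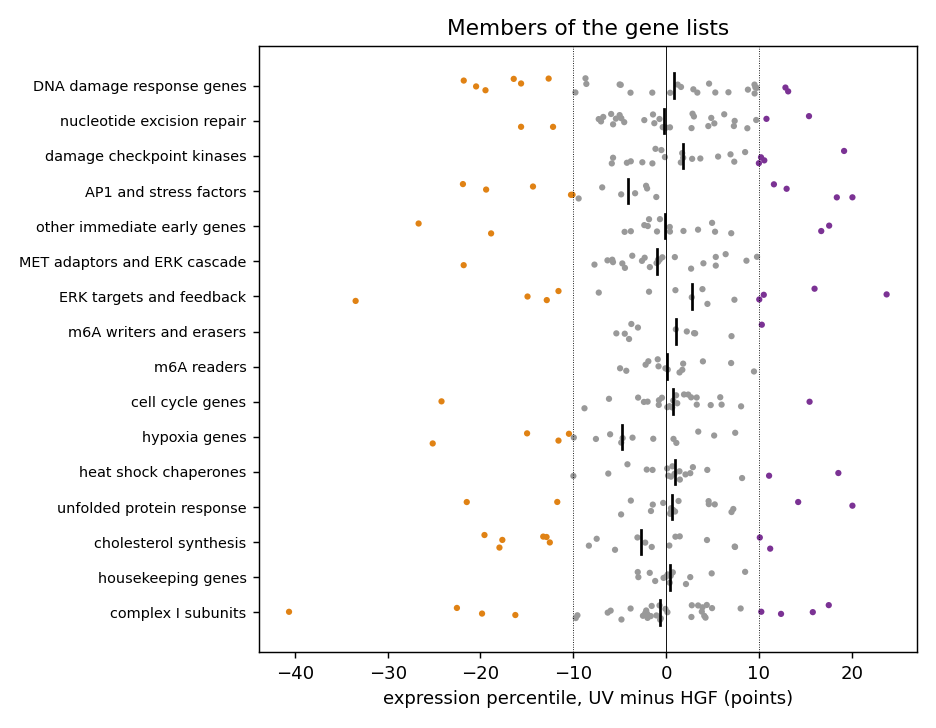
Percentile difference UV minus HGF in points (x axis) for the members past the filter of 16 of the gene lists (y axis; the larger symbol families and lists under 11 members are not drawn), each point 1 gene, with the list median as a black line. Dotted lines mark 10 points. The medians plotted lie between -4.76 (hypoxia genes) and 2.77 (ERK targets and feedback).

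Larger families were counted by symbol. Several of them ranked high, and in models at percentile 75 or more on both sides 4.28% stood higher after UV and 5.63% after HGF. Of 75 mitochondrial ribosomal protein genes, 11 stood higher after UV and 4 after HGF (median 1.49), and 5 and 1 after GC correction. MRPL19 (80.1 and 60.8) and MRPL47 (95.1 and 78.3) stood higher after UV, and MRPL54 (76.3 and 91.6) after HGF. Of 83 cytosolic ribosomal protein genes, 77 passed, 7 stood higher after UV and 0 after HGF (median 0.19). The 7 included RPL41 (77.1 and 20.4), RPL39 (95.4 and 72.1) and RPS27 (98.5 and 74.0). Median percentiles of the 77 were 98.8 after UV and 98.3 after HGF. A gene at 98.8 after UV cannot stand 10 points higher after HGF. These genes have many processed copies in the genome, so their values are uncertain. Of 37 complex I subunit genes, 4 stood higher on each side (median -0.71), and 1 and 4 after GC correction, with NDUFA5 (87.7 and 70.2) (9.05 points after GC correction) and NDUFB2 (93.8 and 78.0) after UV and NDUFS7, NDUFA7 (74.6 and 97.1) and NDUFS8 (78.4 and 98.2) after HGF. Of 50 core histone genes past the filter, 1 stood higher after UV and 10 after HGF (median -1.88), and 2 and 5 after GC correction, with HIST1H3C (63.9 and 89.2) and HIST1H1D, a linker histone that the symbol pattern includes (73.5 and 98.2), after HGF. Histone transcripts mostly lack polyA tails, and the part of polyA selection in these ranks was not tested.

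Numbered zinc finger genes, many of them DNA-binding repressors with a KRAB domain, often had peaks on both sides. Of 258 past the filter, 202 had a UV peak and 192 an HGF peak, and 172 had both. Over all models past the filter, with 1 per symbol, 58.2% had a UV peak and 45.4% an HGF peak. The UV and HGF counts were thus closer to each other in this family than over all models. In expression, 60 stood higher after UV and 30 after HGF (median 3.53, and 1.58 after GC correction, where 32 and 22 stood apart). ZNF101, ZNF619 (74.2 and 48.6) and ZNF222 (69.6 and 27.8) stood higher after UV, and ZNF358 (56.9 and 85.4) and ZNF414 (61.5 and 86.2) after HGF.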

How the data were processed

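Libraries, groups and treatments were taken from the labels. Per the labels' protocols, polyA RNA was fragmented, precipitated with an anti-m6A antibody, random-primed and sequenced on a Genome Analyzer IIx. The authors deposited a table with, per treatment, an expression quantile as a fraction from 0 to 1 (written here as a percentile), and for each peak its position, exon, exon length, segment and score. The score is a measure of enrichment defined by the authors, per the file headers. Neither its formula nor the aligner, peak caller and genome build is named: these are not given in the sources used here, nor whether the quantile comes from IP, input or both. Deposited coordinates were not converted, except that starts count from 1.

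Gene models entered at percentile 60 or more on at least 1 side, with values under the higher floor raised to it. A difference was called at 10 points, a shared site at 100 nt and a score-rank difference at 25 points. Exact Clopper-Pearson intervals have a level of 95%. Where a gene had several models, the one with the highest mean percentile was used in lists and naming. GC content, of the longest transcript under the symbol or a synonym, and window sequences, of matched transcripts, came from GENCODE 29. Scripts used Python 3.11.15, pandas 2.3.3, NumPy 2.4.6 and SciPy 1.17.1, and the matching, ranking and interval steps were tested on simulated data.

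Genes were named by rule: the 8 widest differences each way among models past the filter, and again among models above both floors and at 75 or more on a side; up to 6 list members each way; the 6 genes with most sites on 1 side; the 6 highest-scoring start sites in models without a peak on the other side; and the 6 widest score-rank differences each way. LOC, MIR, SNOR, SCARNA, RNU and orf symbols were left out. Printed sites leave out chromosome 8, and some further items are not reported here. Further list members, printed sites and examples from families were chosen after their values were seen. The 26 gene lists, the comparison and the rules were chosen with earlier results of these data known.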

Additional observations from a re-analysis of the deposited data

How the results depend on the processing

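Counts of models higher after UV and after HGF moved most under stricter calls: to 227 and 299 with percentile 75 required in both treatments, to 256 and 474 at 20 points, and to 992 and 1026 with GC correction. At 20 points 35.1% of the called models stood higher after UV, against 47.8% at 10 points. The share of HGF sites with a UV peak was 63.8% within 50 nt, 75.3% within 200 nt, 73.4% for scores of 3 or more, 57.98% with the same number of peaks per side and 68.3% in models at 75 or more on both sides. For UV sites with an HGF peak it was 43.7% within 50 nt, 51.4% within 200 nt, 39.6% for scores of 3 or more and 57.6% with the same number of peaks per side. The UV start share was 8.98% with the same number of peaks per side, 14.1% in models at 75 or more, 6.85% in models with a peak on both sides (HGF 3.50%) and 15.3% in models within 5 points, an alternative added after the main values were seen. The HGF start share was 2.32% for scores of 3 or more, 5.51% in models at 75 or more and 5.70% in models within 5 points. It stayed below the UV share under each of these. Sites with a higher score rank numbered 629 (UV) and 553 (HGF) at 40 points, and 649 and 668 in models at 75 or more. With GC correction, rho of the rank difference with gene span was -0.016. GC correction of list medians, also added later, turned those of DNA damage response genes to -2.90, other immediate early genes to 1.64, m6A readers to -4.41 and the unfolded protein response to -0.57. Fewer models, peaks or sites enter under most of these settings, and otherwise the cause was not tested. No filter, re-ranking and 1 model per symbol left the main counts within 1.5 times, but out of other totals. Without a filter they were 2089 and 2262 of 25918 models. Re-ranked, they were 1582 and 1555 of 6609, against 1760 and 1919 of 11601 in the main setting. Leaving ranks as deposited could not change the counts by its construction. No paired analysis was possible because each group holds 1 library, and no replicate could be left out. Depth is unknown, so low-ranked models and weak peaks set the limit of what was detectable.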

Other observations

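Small nucleolar and Cajal body RNAs often stood at the floor on 1 side. Of 158 models past the filter, 91 were above both floors, so the rest passed only through the side where they are high, and the counts that follow are a description. Of the 158, 69 stood 10 points or more higher after UV, 42 after HGF and 47 lay within 10 points, against 15.1% and 16.4% of all models with 1 per symbol. The median was 6.14 points, and 6.29 after GC correction. SNORD94 (97.4 after UV, 20.4 after HGF), SNORD66 (96.4 and 20.4) and SNORD48 (95.9 and 20.4) were at the HGF floor. SCARNA8 (45.5 and 97.5), SCARNA21 (45.5 and 96.0) and SNORA42 (45.5 and 94.1) were at the UV floor. The models SNORD36A (45.5 and 89.3), SNORD36B (92.9 and 20.4) and SNORD36C (93.3 and 20.4) stood at opposite floors. These RNAs guide chemical modification of other RNAs, mostly lie in introns of host genes and have no polyA tail, so their reads cannot be told apart from those of unspliced host transcripts. They were named after their values were seen. Of all 322 in the table, 0 had a UV peak and 2 had an HGF peak.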
